A study of Saccharomyces cerevisiae with 227 samples.

Results

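The later part of antimycin A treatment in air was examined in wild-type Saccharomyces cerevisiae JM43, over the arrays labelled 0.38 and 0.5 generations and 1 to 3 generations after the drug, with the 0 generation arrays of the same series. These were 15 treated arrays, 3 for each time point, and 3 control arrays, 18 of the 227 arrays deposited, chosen by their labels and not by any measured value. All 18 came from haploid MATα leu2 his4 trp1 ura3 rho+ cells grown in air in a semi-synthetic galactose medium with Tween 80 and ergosterol for at least 6 generations. The drug was used at 1 µM. By the study's methods the control was harvested before the drug was added, although the labels of the 0 generation arrays name antimycin A in the medium. Each array set labelled cDNA of 1 sample against a pool of RNA from an anaerobic and a re-aerated culture, and the deposited values are log ratios. The sources used here do not state their base or direction. Base 2 and sample over pool were used throughout, and in that direction TIR4, a gene of anaerobic cells, changed by 5.75 over 1 to 3 generations after a shift from air to N2 and CYC1, an oxygen-dependent gene, by -5.26, so that the direction is likely but not stated. The methods describe 2 fermentor runs that together cover 1 time series, each sampled at alternate time points. The labels do not say which run an array came from, so the time point and the run cannot be told apart.

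Antimycin A binds the cytochrome bc1 complex and stops electron flow from ubiquinol to cytochrome c, so that oxygen is present but cannot be respired. Yeast on galactose can then grow by fermentation. When mitochondria fail, the retrograde pathway of Rtg1, Rtg2 and Rtg3 turns on genes such as CIT2, which keep glutamate precursors in supply, and sets apart the first steps of the TCA cycle from the rest. Heme and sterol synthesis need oxygen itself, and hypoxic genes are controlled through heme and sterols.

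The table held 5609 open reading frames (ORFs), of which 5203 carried a gene name in the RefSeq annotation. Over the 18 arrays the median log2 ratio lay between -0.036 and 0.041, and replicate arrays correlated with a median Pearson r of 0.851 across genes. Replicate 2 of 3 generations stood apart from its partners, with r of 0.457 and 0.611, and it had the lowest array weight of the series, 0.181. Replicate 1 of 2 generations lacked 177 values, while no other array of the 18 lacked more than 40. There were 99 ORFs, in 40 groups, whose values were identical to those of another ORF on all arrays of the series. These share a probe and are counted separately below. The air label was checked on cell wall genes of anaerobic cells: TIR4 had log2 ratios of -5.95, -4.13 and -6.79 in the 3 controls and between -7.27 and -5.80 on the 9 arrays of 1 to 3 generations, and TIR3, DAN1 and AUS1 were likewise far below the pool, part of which is anaerobic RNA, on all of them.

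Fewer genes passed the threshold against the control at each later time point, though the last step depended on the setting. A gene was called differentially expressed where limma gave it a Holm-adjusted p of 0.01 or less over all genes tested. At 0.38 generations 406 of 5582 genes (7.27%) were called, 227 up-regulated (4.07%) and 179 down-regulated (3.21%). At 0.5 generations 235 genes (4.21%) were called, of which 155 (2.78% of those tested) were higher, at 1 generation 110 (1.97%), at 2 generations 68 (1.22%) and at 3 generations 59 (1.06%). Down-regulated genes became rare: 80 of the calls were lower at 0.5 generations (1.43%), 20 at 1 generation (0.358%), 16 at 2 generations (0.287%) and 11 at 3 generations (0.197%). All 5 comparisons share the 3 control arrays, and the calls rest on a spread estimated from the whole 11-point series. With only the arrays compared in each fit, the counts were 118, 68, 18, 12 and 2. Benjamini-Hochberg adjustment gave 205 genes at 2 generations and 223 at 3 generations. Without replicate 1 of 2 generations the Holm counts at those times were 48 and 60. At 0.38 generations the balance of higher and lower genes depended on the scaling: quantile normalization gave 208 higher and 224 lower, and setting each array's median to 0 gave 261 and 128. The same centring gave 77.4% higher at 0.5 generations. Quantile normalization raised the share of lower genes at the other times too, with 53.8% of calls higher at 0.5 generations in place of 66.0% and 70.4% in place of 81.4% at 3 generations.

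**Figure D1:**
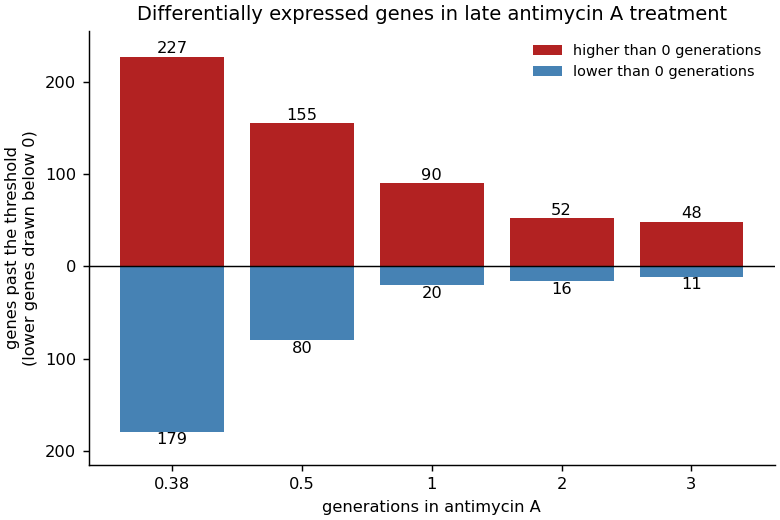
Number of genes (vertical axis) past a Holm-adjusted p of 0.01 at each time point (horizontal axis, generations in antimycin A), with up-regulated genes above and down-regulated genes below the zero line. The bars shrink from 227 and 179 genes at 0.38 generations to 48 and 11 at 3 generations.

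What stayed changed was tested in 1 contrast, the mean of 1, 2 and 3 generations minus the control, called the late change below. It called 131 of 5579 genes (2.35%), 101 higher (1.81%) and 30 lower (0.538%), and 52 of the higher and 10 of the lower changed at least 2-fold. Of the 101 higher genes, 100 had all their late arrays above all 3 controls (YKL154W did not), where 4.86% of all genes tested did. Of the 30 lower genes, 29 had all late arrays below the controls (BIO2 did not), where 4.88% of all genes did. The calls were made on the same arrays, so this separation follows largely from the calls and is not independent of them. The medians of the deposited arrays were all close to 0, so a change common to most genes could not be measured, and all values are relative to the other genes of an array. With quantile normalization the split was 129 higher and 67 lower. The control arrays weighed most on the count of 131. Without control replicate 1 it was 76, and without control replicate 3 it was 74, while leaving out replicate 2 of 3 generations, the array that stood apart, gave 132. Among the genes named below by rule, the calls of ACO1, CCP1, CIT3, CTA1, FDH1, GIT1, HSP26, IMD2, INO1, MEP3, MET28, MRH1, PGM2, PRM1, SLT2, SSE2, SUT1, UGA1, URA1 and the THI5 group did not survive the loss of at least 1 control array, with adjusted p-values from 0.0118 to 0.434, though the direction held in each case. With only the groups compared in the fit, 39 genes were called, 35 higher and 4 lower, all of them among the 131. The calls of the genes just named were lost there as well, and so were those of DIA1, GDH1, GPM2 and SAG1, with adjusted p-values from 0.0123 to 0.840.

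The largest late rise was in POX1 (YGL205W), the acyl-CoA oxidase that opens peroxisomal β-oxidation. Its log2 ratios were -0.09, -0.28 and -0.24 in the controls, 3.94, 3.96 and 4.72 at 0.38 generations, and between 1.63 and 2.72 with a median of 2.53 on the 9 late arrays. The groups did not overlap, and late levels lay below those at 0.38 generations but far above the control. The late change was 2.64 ± 0.20 (SE), or 6.24-fold (adjusted p = 1.15e-09). Of 44 genes listed for β-oxidation and the peroxisome, 6 were called higher and none lower, where 1.81% of all genes were higher and 0.538% lower, with a median change of 0.10. The others were SPS19 (1.33), a peroxisomal dienoyl-CoA reductase; PXA1 (1.25), which forms part of the fatty acid importer; FAA2 (0.96), an acyl-CoA synthetase; CTA1 (0.80), the peroxisomal catalase; and IDP3 (0.70), which makes NADPH for the breakdown of unsaturated fatty acids. POT1 and FOX2, the remaining core enzymes, had values of 0.54 and 0.29 and were not called. None of the 26 PEX genes for building the organelle was called, and their values ran from -0.54 to 0.51. PCS60, a peroxisomal acyl-CoA synthetase-like enzyme picked after its value was seen, rose by 1.20.

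**Figure D2:**
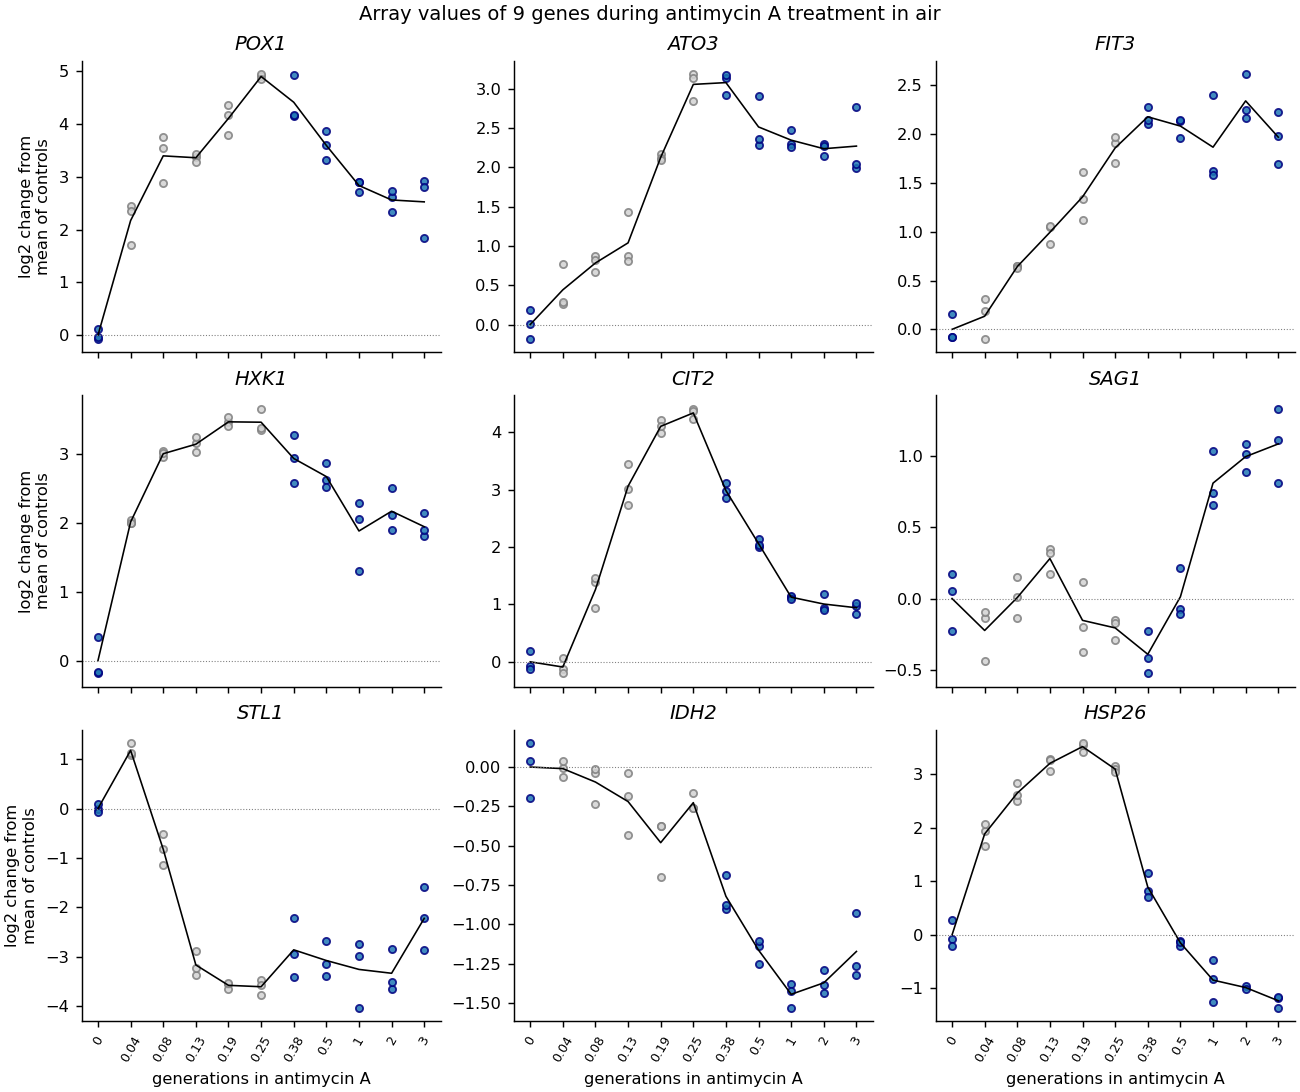
Log2 change from the mean of the 3 controls (vertical axes) at each sampled time (horizontal axes, generations in antimycin A) for 9 genes; points are single arrays, lines join the means, blue points are the arrays of this comparison and grey points the time points before 0.38 generations. POX1, ATO3, FIT3 and HXK1 stay high to 3 generations, CIT2 falls back most of the way, SAG1 moves only from 1 generation on, and HSP26 passes from above to below the control.

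Genes of the retrograde pathway did not move as 1 block. CIT2, the peroxisomal citrate synthase that is its usual marker, had log2 ratios of 0.24, -0.02 and -0.08 in the controls. It stood at 2.90, 3.03 and 3.16 at 0.38 generations, at 1.17, 1.20 and 1.14 at 1 generation, and at 0.87, 1.02 and 1.08 at 3 generations. It was above the control throughout, without overlap, with a late change of 1.03 ± 0.12 (adjusted p = 1.28e-05). CIT3, a mitochondrial citrate and methylcitrate synthase, followed the same course, from 4.02 at 0.38 generations to a late change of 1.04. ATO3, a plasma membrane protein of the ammonium and acetate transporter family, kept more of its rise: the controls were -0.65, -0.48 and -0.84, the 0.38 generation arrays 2.48, 2.27 and 2.52, and the late arrays ran from 1.34 to 2.11 around a median of 1.61. That was a late change of 2.29 ± 0.15 (4.87-fold, adjusted p = 5.03e-11). Its relative ATO2, which is not on the list, rose by 1.95, while the third member ADY2 had -0.16 and was not called.

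Of the 13 retrograde targets listed, 3 were called higher and 2 lower in the late change, where 1.81% of all genes were higher and 0.538% lower. The median of the list was -0.01. The 2 lower genes act between citrate and α-ketoglutarate. IDH2, a subunit of the mitochondrial NAD-dependent isocitrate dehydrogenase, had log2 ratios of -0.11, 0.23 and 0.12 in the controls, -0.82, -0.61 and -0.80 at 0.38 generations, and between -1.45 and -0.85 with a median of -1.30 on the late arrays. All late arrays lay below the controls, and the late change was -1.33 ± 0.10 (adjusted p = 8.67e-10). ACO1, the mitochondrial aconitase, changed by -1.34 ± 0.20 (adjusted p = 0.00163), with controls at 0.22, 0.18 and 0.06 and late arrays from -2.22 to -0.20. Its call was lost without any 1 of the 3 controls (adjusted p from 0.0183 to 0.0482). The other subunit IDH1 had -0.99 and was not called. DLD3, PDH1 and DIC1, listed as targets and called at 0.38 generations with changes of 1.65, 1.67 and 1.76, had late values of 0.35, -0.57 and 0.62, none past the threshold. RTG1, RTG2 and RTG3, the regulators themselves, had late values of 0.03, 0.04 and -0.25, and none of the 7 regulators listed was called.

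Of 16 genes for the bc1 complex, which antimycin A blocks, and its assembly, none was called in the late change. As 2.35% of all genes were called, a list of this size would hold few calls or none at the same share. The values ran from -0.42 (COR1) to 0.23 (QCR10) and a median of -0.08. CYT1, which encodes cytochrome c1, had log2 ratios of 0.84, 0.75 and 0.79 in the controls and between 0.51 and 0.91 on the late arrays. Among 21 genes for cytochrome c and its oxidase none was called, and CYC1, the main cytochrome c, had a late value of -0.16. The same held for 19 ATP synthase genes tested, 18 mitochondrially encoded features and 54 mitochondrial ribosomal genes, with medians of -0.16, -0.12 and -0.07. For the mitochondrially encoded features, the median change ran from -1.30 to 1.10 between single late arrays. In the TCA cycle list 3 of 17 genes were lower (ACO1, IDH2 and FUM1, the fumarase, at -0.60) and CIT3 was higher. NDE1, the main external NADH dehydrogenase, had a late value of -0.62 that did not pass (adjusted p = 0.30) but was called without replicate 2 of 3 generations, with an adjusted p of 0.00076. It was also called with Benjamini-Hochberg adjustment (0.00137), with array weights (0.0063) and with quantile normalization, where the change was -1.01 (0.000552).

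Glycolytic genes made up the list with the highest late median, 0.51. Of 24 members, 14 were called higher at 0.38 generations and 7 in the late change, and none was lower at either, beside 4.07% and 1.81% of all genes called higher. HXK1, a hexokinase, led them: its log2 ratios were -1.13, -0.60 and -1.11 in the controls, 1.64, 2.33 and 2.00 at 0.38 generations, and between 0.35 and 1.55 with a median of 1.10 on the late arrays. The late arrays lay above the controls without overlap, and the change was 2.00 ± 0.16 (3.99-fold, adjusted p = 3.52e-09). The others included GPM2 (1.39), a phosphoglycerate mutase homologue without known activity. TYE7 (1.24) and GCR1 (0.84), transcription factors of glycolytic genes, were called, as were PFK27 (0.98) and PFK26 (0.71), whose products make the activator of phosphofructokinase. Besides HXK1, TPI1 (0.73), the triose phosphate isomerase, was the only enzyme of the main path among them. PGK1, CDC19 and FBA1 were called at 0.38 generations with 0.93, 1.43 and 1.34, and had late values of 0.26, 0.24 and 0.54. Hexose transporters and sensors had a median late value of 0.34 over 24 members and none was called. In the galactose list only PGM2 was called (1.07), and GAL1, GAL7 and GAL10 had -0.17, 0.02 and 0.29.

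Of the 18 fermentation genes tested, 3 were called higher in the late change, where 1.81% of all genes were higher. ADH2, the alcohol dehydrogenase that consumes ethanol, changed by 1.88 ± 0.22 (adjusted p = 1.48e-05). Its controls were -1.21, -0.69 and -1.11, its 0.38 generation arrays 2.08, 2.49 and 2.33, and its late arrays ran from 0.49 to 1.32. ALD4, a mitochondrial aldehyde dehydrogenase, rose by 1.46, and ADH1, the fermentative enzyme, by 0.98. ADH1 and ADH2 are close paralogues, and cross-hybridization between them was not tested. PDC1, the main pyruvate decarboxylase, had -0.11. The formate dehydrogenase gene FDH1 rose by 1.87 ± 0.28 from an already very high ratio, 5.95, 5.20 and 4.48 in the controls against 6.82 to 7.55 on the late arrays. Its ratio was the highest of the array on every array, so quantile normalization, which gives each rank the same value on all arrays, set its change to 0.

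Reserve carbohydrate genes stayed partly raised. Of 20 genes for trehalose and glycogen, 9 were called higher at 0.38 generations, beside 4.07% of all genes. In the late change 5 were called higher, beside 1.81% of all genes, with a list median of 0.41. They were PGM2 (1.07), phosphoglucomutase; ATH1 (0.98) and NTH2 (0.75), trehalases; GDB1 (0.94), the glycogen debranching enzyme; and TPS1 (0.64), the trehalose phosphate synthase. Synthesis and breakdown were both represented. Outside the list, and picked after their values were seen, GIP2 (1.47) and PCL10 (1.04), which act on glycogen synthase through a phosphatase and a kinase, and IGD1 (0.93), an inhibitor of the debranching enzyme, were also higher.

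Stress genes were called in both directions. Over all genes, 1.81% were higher and 0.538% lower, and the counts of the stress and cell wall lists stand beside those shares. HSP12, a small membrane-stabilizing heat shock protein, had log2 ratios of -1.10, -0.95 and -0.96 in the controls, and 2.43, 2.37 and 2.35 at 0.38 generations. It then stood at 1.76, 1.72 and 1.57 at 1 generation, 0.98, 0.89 and 1.16 at 2 generations, and 1.02, -0.34 and 0.64 at 3 generations. Every late array was above the controls, and the lowest was replicate 2 of 3 generations. The late change was 2.04 ± 0.16 (adjusted p = 1.74e-09). HSP26, another small heat shock protein, went the other way: it was at -1.98, -1.63 and -2.12 in the controls and between -3.27 and -2.37 on the 8 late arrays with a value. Its late change was -1.02 ± 0.13 (adjusted p = 0.000146), after a mean of 3.27 above the control over 0.13 to 0.25 generations. Of 31 heat shock and chaperone genes, 2 were higher (HSP12 and SSE2, an Hsp110 protein, at 0.86) and 3 lower (HSP26, HSP82 at -0.79 and its cochaperone CPR6 at -0.62), and the median was -0.18. Among 37 genes of oxidative stress defence 2 were higher, CTA1 and CCP1 (0.52), the cytochrome c peroxidase of mitochondria. SOD1, SOD2 and TSA1 had -0.15, 0.27 and 0.31, none called. The cell wall mannoprotein genes SPI1 (2.12) and TIP1 (1.64) rose, while SLT2, the kinase of the cell integrity pathway, changed by -0.70, these being the calls among 37 cell wall genes.

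Iron genes gave 2 calls of 34 members, both higher, where 1.81% of all genes were higher. FIT3 and FIT2 encode mannoproteins that hold siderophore-bound iron in the cell wall. FIT3 had log2 ratios of 1.06, 1.30 and 1.07 in the controls, 3.25, 3.29 and 3.42 at 0.38 generations, and 2.72 to 3.76 with a median of 3.31 on the late arrays. All treated arrays from 0.38 generations on lay above the controls. The late change was 2.06 ± 0.14 (4.17-fold, adjusted p = 9.36e-11) against 1.40 over 0.13 to 0.25 generations, and the late arrays differed from 0.38 generations by -0.12. FIT2 rose by 1.70. FIT1 had -0.32. Of the high-affinity uptake genes, FET3, FTR1 and ARN1 were called lower at 0.38 generations (-1.47, -1.42 and -1.75) and had late values of -0.56, -0.23 and -0.15, none called. The regulators AFT1 and AFT2 had -0.07 and -0.24.

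The largest fall was in STL1, the glycerol and proton symporter. Its log2 ratios were 1.13, 1.25 and 1.07 in the controls and -2.26, -1.07 and -1.79 at 0.38 generations. At 1, 2 and 3 generations they ran from -2.88 to -0.44 with a median of -1.71. No array from 0.38 generations on reached the controls, and the late change was -2.93 ± 0.24 (7.64-fold lower, adjusted p = 9.03e-09). It was the only 1 of 13 genes of glycerol metabolism called in the late change, where 2.35% of all genes were called. GPD2 and GPP1, which make glycerol and were higher at 0.38 generations, had late values of 0.56 and 0.52.

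INO1, which makes inositol phosphate, changed by -1.41 ± 0.21 and GIT1, a permease for glycerophosphoinositol, by -1.35 ± 0.20. Both calls were lost without control replicate 1 or 2. Of 17 genes for glutamate and glutamine, GDH1 (-0.88), the NADPH-dependent glutamate dehydrogenase that fixes ammonium, and MEP3 (-0.92), an ammonium permease, were lower, and UGA1 (0.68), the GABA transaminase, was higher. Over all genes, 0.538% were lower and 1.81% higher. GDH1 had 0.58, 0.21 and 0.22 in the controls and between -0.67 and -0.21 on the late arrays, without overlap (adjusted p = 7.24e-07, but 0.0295 with only the groups compared in the fit). GDH3, which encodes its isoenzyme, had 0.28. Outside the lists, ASN1 (-0.92), AAT2 (-0.69) and HIS1 (-0.68), for asparagine, aspartate and histidine, and URA1 (-0.86) and URA4 (-0.74), for pyrimidines, were lower, all but URA1 picked after their values were seen. ARO10, the phenylpyruvate decarboxylase of aromatic amino acid breakdown, changed by -1.03 ± 0.11. Its controls were 1.31, 1.12 and 1.25, and it was still at 0.87, 1.22 and 1.03 at 0.38 generations, overlapping the controls. All later arrays were at or below 0.64. ECM13 (-1.49), DIA1 (-1.15) and MRH1 (-1.05) completed the 10 largest falls.

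One mating gene moved late and not before. SAG1, the α-agglutinin by which MATα cells adhere in mating, had log2 ratios of -3.16, -2.76 and -2.88 in the controls and -3.35, -3.16 and -3.46 at 0.38 generations. It stood at -2.19, -2.28 and -1.90 at 1 generation and at -2.12, -1.60 and -1.82 at 3 generations, above every control. The late change was 0.96 ± 0.12 (adjusted p = 6.31e-05, but 0.0372 with only the groups compared in the fit), and the change from early to late was 0.99 (adjusted p = 1.9e-08). PRM1, which acts in the fusion of mating cells, was the other called member of 27 mating genes (1.66 ± 0.27), but its adjusted p of 0.00768 went above 0.01 when any 1 control was left out. The PRM1 call was also lost when single treated arrays at several time points were left out, and with no moderation (adjusted p = 0.0714). FUS1, STE2 and MF(ALPHA)1 had 0.08, 0.28 and 0.23. IMD2, an IMP dehydrogenase of guanine nucleotide synthesis, rose by 1.28 ± 0.17 and was the only purine gene of 24 tested to be called. The counts of the mating and purine lists stand beside 1.81% of all genes called higher and 0.538% lower. The 4 thiamine genes THI5, THI11, THI12 and THI13 share 1 value, a late change of 0.71, and cannot be told apart.

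The return from the early response was tested without the control arrays, as the mean of 1 to 3 generations minus the mean of 0.13, 0.19 and 0.25 generations. It called 1411 of 5589 genes (25.2%), 690 higher and 721 lower. The largest differences upward were in DBP2, an RNA helicase of ribosome synthesis and mRNA export (3.36); YGR079W (2.91), of unknown function; FUI1, the uridine permease (2.89); and TRM11, a tRNA methyltransferase (2.66). DBP2 had log2 ratios from -3.47 to -2.60 on the 9 early arrays and from -0.10 to 0.51 on the 9 late arrays. Its controls were 0.35, 0.72 and 0.47, so that late and control arrays met. The largest differences downward were in HSP26 (-4.29), CIT3 (-3.27), SPG4 (-2.92), needed for survival at high temperature in stationary phase, and CIT2 (-2.81).

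Ribosome assembly genes returned toward the control. Of 66 members, 56 were called higher late than early and none lower (12.3% of all genes were called higher), with a median difference of 1.39. Their median change from the control was -1.65 over 0.13 to 0.25 generations, -0.87 at 0.38, -0.67 at 0.5 and -0.32, -0.19 and -0.27 at 1, 2 and 3 generations, where none was called. Of 138 genes of the cytosolic ribosome, 52 were higher late than early. Against the control, 17 of the 137 tested were called lower at 0.38 generations and 19 at 0.5 generations. The shares of all genes called lower at those times were 3.21% and 1.43%. None of the 137 was called at 1, 2 or 3 generations, where the medians were -0.20, -0.17 and -0.35. For G1/S and DNA synthesis, 23 of 50 genes were higher late than early, and the late median against the control was 0.13. In the other direction, 21 of 31 heat shock genes, 16 of 20 trehalose and glycogen genes, 18 of 37 oxidative stress genes and 11 of 24 glycolytic genes were lower late than early (12.9% of all genes were called lower).

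**Figure D3:**
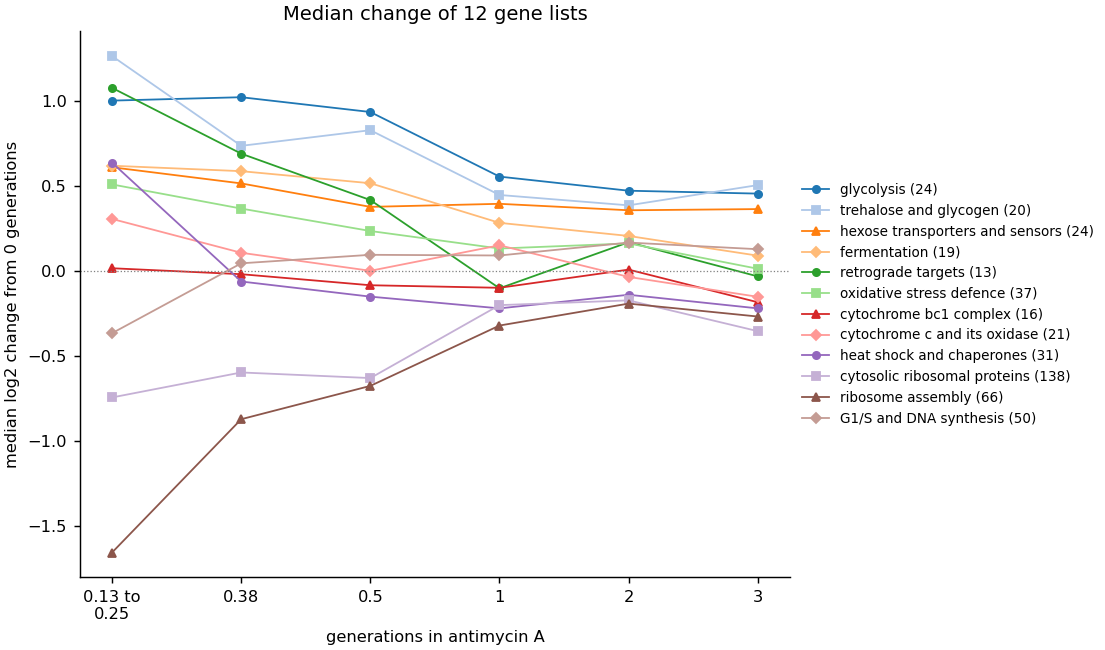
Median log2 change from 0 generations (vertical axis) of 12 gene lists at the mean of 0.13 to 0.25 generations and at 5 later times (horizontal axis, generations in antimycin A); the number of genes in each list stands in brackets. The lists spread from -1.65 to 1.27 early and lie between -0.35 and 0.56 from 1 generation on, with glycolysis and trehalose and glycogen on top.

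Part of this return was still under way at 0.38 generations. The mean of 1 to 3 generations minus 0.38 generations called 220 of 5589 genes (3.94%), 85 higher (1.52%) and 135 lower (2.42%), so that 38.6% of the calls were higher (against 50.7% with quantile normalization). By list, 10 of 66 ribosome assembly genes and 1 cytosolic ribosome gene (RPL16A) were higher. Lower were 5 of 13 retrograde targets, 6 of 19 fermentation genes, 7 of 23 genes for lysine, leucine and branched amino acids, and 5 of 24 glycolytic genes. The genes raised most at 0.38 generations were POX1 (4.41), SPG4 (4.14) and CIT3 (4.02), and those lowered most were STL1 (-2.86), AAH1 (-2.79), the adenine deaminase, and URA1 (-2.57), the dihydroorotate dehydrogenase. AAH1 had a late change of -0.997 that was not called. It was called with Benjamini-Hochberg adjustment (adjusted p = 0.00127) and with quantile normalization, where the change was -1.46 (adjusted p = 0.00444). Leaving out any 1 of the 0.38 generation arrays lowered the count of 220 to between 111 and 139.

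The same late time points after a shift of wild-type cells from air to N2 in galactose gave a comparison in which respiration and oxygen were both absent. The difference of the late changes, antimycin A minus N2, was tested in 1 fit of both whole series, each against its own control so that its own reference pool cancels, and called 400 of 5579 genes (7.17%), 249 higher (4.46%) and 151 lower (2.71%) with antimycin A. Those 249 had a median late change of 0.15 with antimycin A and -1.22 in N2, and the 151 had -0.13 and 1.53. Replicates of the N2 control differed: TIR4 was at -2.22, -3.35 and -7.12 on its 3 arrays, and the 3 arrays correlated with r of 0.70 to 0.86. Leaving out any 1 array of 0 to 3 generations of either series gave between 357 and 446 calls.

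Respiratory and hypoxic genes were among those that differed, while most of the 400 belonged to neither. The list counts below stand beside 4.46% of all genes called higher and 2.71% called lower. Of 16 bc1 genes 9 were higher with antimycin A than in N2, with list medians of -0.08 and -1.39, and of 21 genes for cytochrome c and its oxidase 11 were higher and 1, COX5B, the hypoxic subunit, lower. CYC1 had log2 ratios of 1.24, 1.45 and 1.36 at 1 generation of antimycin A and -3.85, -3.46 and -2.95 at 1 generation of N2, from control values of 1.26 to 1.48 and 1.31 to 1.64. The 2 treatments did not overlap, and the difference was 5.11 ± 0.21 (adjusted p = 1.2e-25). NDE1 (4.33), CYT1 (2.90), COX4 (2.01) and COR1 (1.69) differed in the same direction. Among 30 hypoxic genes 21 were lower and 2 higher with antimycin A, with medians of -0.11 and 2.69, led by TIR4 (-6.76), TIR3 (-6.20), DAN1 (-5.14) and the sterol importer AUS1 (-4.83). Without replicate 3 of the N2 control, the difference for TIR4 was -5.32. SUT1, a regulator of sterol uptake, was called higher late with antimycin A (0.75) and had 1.51 in N2.

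**Figure D4:**
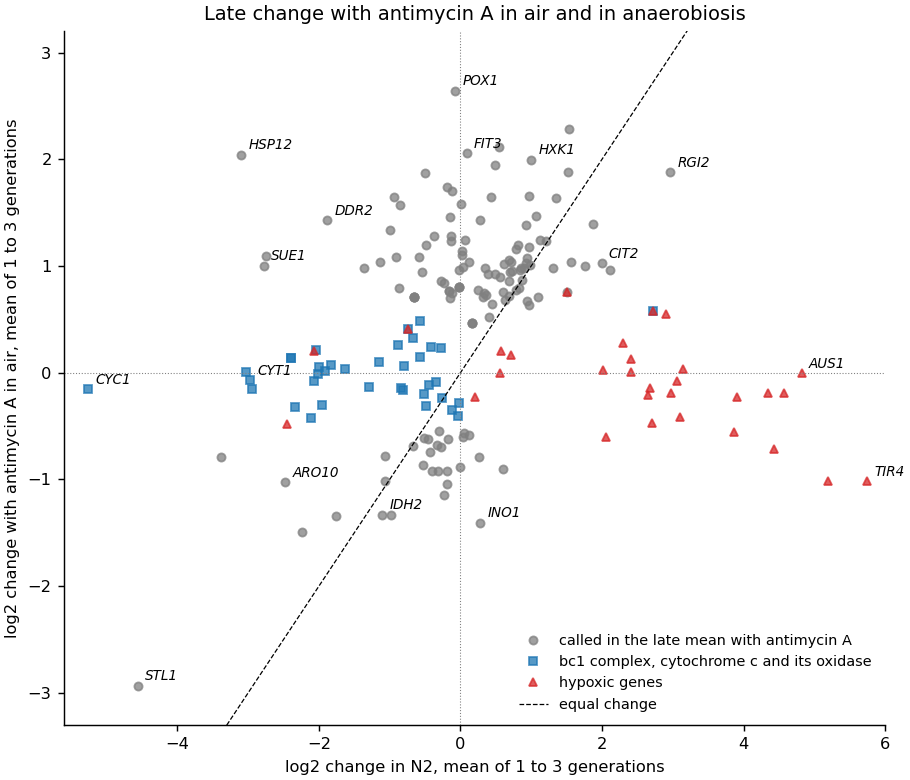
Late change with antimycin A in air (vertical axis) against late change in N2 (horizontal axis), both as log2, mean of 1 to 3 generations minus 0 generations; grey circles are the 131 genes called with antimycin A, blue squares respiratory chain genes and red triangles hypoxic genes, and the dashed line marks equal change. Most respiratory genes lie to the left and most hypoxic genes to the right, near zero on the vertical axis, while POX1, FIT3 and HSP12 lie high with N2 changes of -0.08, 0.09 and -3.10.

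Several genes that stayed high with antimycin A were close to their control in N2. POX1 had a late change of -0.08 in N2 (difference 2.72 ± 0.26, adjusted p = 1.8e-10), FIT3 0.09 (1.97 ± 0.18) and FIT2 -0.12 (1.83 ± 0.24). Of the 44 β-oxidation and peroxisome genes, 10 were higher with antimycin A than in N2 and none lower, beside 4.46% and 2.71% of all genes. HSP12 was at 0.98, 0.89 and 1.16 at 2 generations of antimycin A and at -4.37, -4.34 and -4.27 at 2 generations of N2, a difference over 1 to 3 generations of 5.14 ± 0.21. In N2 it had not fallen that far at 1 generation, where its log2 ratios were -0.41, -0.42 and -0.59. CIT2 was higher in N2 (1.99 against 1.03, difference -0.97 ± 0.16, adjusted p = 0.0013), a call lost without replicate 3 of the N2 control (adjusted p = 0.0859), and CIT3 was lower in N2 (-1.14 against 1.04). For glycolysis 1 of 24 genes was called in this comparison, GCR1, with medians of 0.51 and 0.52. For trehalose and glycogen it was 1 of 20, GSY1, the glycogen synthase that was lower with antimycin A, with medians of 0.41 and 0.44. As 7.17% of all genes were called, lists of these sizes would hold few calls at the same share. For ATO3, ADH2, HXK1, STL1, IDH2 and ACO1 the difference did not pass the threshold. Their late changes in N2 were 1.54, 1.52, 1.00, -4.56, -1.11 and -0.98. The CYB2 gene for lactate dehydrogenase had the largest difference upward (5.46 ± 0.74), but its arrays with antimycin A were split, at -0.56, 1.14 and 1.24 at 2 generations and -1.03, -1.02 and 1.09 at 3 generations.

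Of 38 gene lists, 18 had no member called in the late change, where 2.35% of all genes were called, so that no call in a short list is near the share over all genes. Beside the respiratory lists they included 27 drug resistance transporters and Pdr1 or Pdr3 targets tested, with a median of 0.10. PDR5, the main drug exporter, had a late value of -0.45 and SNQ2 of 0.13. Ergosterol synthesis had a median of 0.09 over 25 genes, heme synthesis -0.10 over 11, phosphate -0.01 over 24, zinc 0.06 over 13, arginine and urea -0.02 over 18, and lysine, leucine and branched amino acids -0.11 over 23. The median over all genes tested was -0.03. At 0.38 generations 5 genes of the last list were called higher, and PDR12, the weak acid exporter, was the only member of the drug resistance list called, with a change of 1.52 that stood at 0.91 late without a call.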

How the data were processed

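RNA of Saccharomyces cerevisiae JM43 was labelled with Cy3 and hybridized with a Cy5-labelled reference pool on custom 70-mer arrays. The deposited values are log ratios, taken here as log2 ratios of sample over pool and normalized by the authors with GenePix Pro and SAS software, whose methods name an ANOVA with step-down Bonferroni adjustment. Neither the base nor the direction is stated in the sources used here. Base 2 came closest to a pooled reference in 3 of 4 series, and base e in 1. The values carry no spot intensities, so signal over background is unknown, and the number of arrays limits the precision.

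Groups were taken from the labels. A linear model over all 11 time points of the antimycin A series (3 arrays each) was fitted with limma 3.58.1 in R 4.3.3, with moderated statistics, Holm adjustment over all genes with at least 2 values in each group compared, and a threshold of 0.01. The comparison with N2 used both series in 1 model, each against its own control. The same code was tested on simulated data: for the mean of 1 to 3 generations, 40 of 50 genes raised by 1 on the log2 scale and 5 of 50 raised by 0.5 were called, with no false call among 5372 unchanged genes. The simulated errors were independent between arrays, with the same spread on each. Effects of a single array or a run were thus absent, and the rate of false calls in the real data is not known. Whether replicates were separate cultures is stated only as a triplicate repeat of the series, and p-values measure the spread between these arrays.

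Genes, contrasts and the 38 lists were chosen with earlier results of these data known. Genes were named by rule: the 10 largest rises and falls of the late mean without overlap, up to 3 called members of each list (or the first 2 listed), the 4 largest differences each way between late and early and between antimycin A and N2, and the 3 largest each way at 0.38 generations. Other names were picked after their values were seen, as were the list members cited for contrast. Gene names came from RefSeq locus tags. Promoter and protein sequences were not analysed here. Alternatives were another adjustment, a 2-fold minimum, median centring, quantile normalization, complete genes only, fits of the compared groups alone, trended, robust or no moderation, array weights, a replicate block and each array left out.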

Additional observations from a re-analysis of the deposited data

Results flagged for a closer look

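The late change differed between antimycin A in air and N2 for 36 of the 97 genes named by rule, by the test of the difference itself (limma, Holm-adjusted p of 0.01 or less over all genes). Each value is the log2 late change with antimycin A minus that in N2. Replicates of the N2 control differed from each other, as described above.

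Several named genes of respiration differed upward, while ATP1, COX1 and COX2, also named by rule, did not pass the threshold. The difference was 5.46 for CYB2, 5.11 for CYC1, 4.33 for NDE1, 2.90 for CYT1, 2.01 for COX4, 1.79 for NDI1, 1.69 for COR1 and 1.13 for ATP2, the β subunit of the ATP synthase. It was 5.41 for YER053C-A, whose late change was 0.88 with antimycin A and -4.52 in N2.

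HSP12 differed by 5.14. It was the only 1 of 31 heat shock genes called higher, while 1 was lower, beside 4.46% and 2.71% of all genes. The differences were 2.72 for POX1, 2.32 for SPS19, 1.67 for CTA1 and 1.19 for PXA1, genes of fatty acid breakdown and the peroxisome, and 2.44 for SPG4. Without replicate 1 of the N2 control the difference for SPG4 was 1.56, and that for CTA1 was 1.34 and not called (adjusted p = 0.0218). Other genes in this direction were FDH1 (2.36), CIT3 (2.18), FIT3 (1.97), FIT2 (1.83), IMD2 (1.65), ALD4 (1.61), ARO10 (1.45) and THI5, THI11 and THI12, which share 1 value (1.37).

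Genes lower with antimycin A than in N2 were TIR4 (-6.76), TIR3 (-6.20), DAN1 (-5.14), AUS1 (-4.83), ERG1 (-1.27), SAG1 (-1.14), CIT2 (-0.97), DIA1 (-0.92), ERG2 (-0.91), ARG1 (-0.88) and GDH1 (-0.87). ERG1 and ERG2 act in ergosterol synthesis and ARG1 in arginine synthesis. The calls of DIA1, ERG2, ARG1, CIT2, ATP2 and CTA1 were lost in at least 1 of 30 fits that each left out 1 array, with adjusted p-values of up to 0.0923, 0.062, 0.0145, 0.0859, 0.0497 and 0.0218.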

How the results depend on the processing

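Under quantile normalization 2 of the genes called at 0.38 generations, 14 of those called in late minus early and 2 of those called in late minus 0.38 generations no longer had the same sign. No other alternative changed the sign of a called gene. Counts are given in the order of time (0.38 to 3 generations), then the mean of 1 to 3 generations, late minus early, late minus 0.38 generations, antimycin A minus N2, and called members of lists. Benjamini-Hochberg adjustment gave 1267, 921, 332, 205, 223, 419, 2835, 836, 894 and 148. A 2-fold minimum left 44 and 37 genes at 2 and 3 generations, 62 in the late mean, 473 in late minus early, 86 in late minus 0.38 generations and 23 list members. With only the groups compared in the fit, which leaves fewer arrays to estimate the spread, the counts were 118, 68, 18, 12 and 2 for the time points, 39 for the late mean, 71 for late minus 0.38 generations and 19 list members. Quantile normalization gave 372, 111 and 108 genes at 0.5, 2 and 3 generations and 80 list members. Array weights gave 408 and 173 genes at 0.5 and 1 generations and 344 in late minus 0.38 generations. The cause of the changes under quantile normalization and weights was not tested.

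Leaving out 1 array at a time moved the counts to 276 to 465, 156 to 274, 77 to 125, 38 to 79 and 36 to 60 at the time points, 74 to 132 in the late mean, 1269 to 1482, 111 to 242, 357 to 446 and 30 to 54 list members, against 52. Without control replicate 1 the counts at 2 and 3 generations were 42 and 39, and without control replicate 3 they were 39 and 36. Without replicate 1 of 0.5 generations that time point gave 156 genes, and without replicate 2 or 3 of 2 generations 43 or 38. The mean of 1 and 2 generations alone, chosen after seeing the data, called 127 genes, 115 of the 131 among them.

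With the replicate number as a block the counts were 384, 249, 113, 77, 54, 136, 1394, 234 and 446, and 118 of the 131 late calls remained. Among the named genes, CTA1 (adjusted p = 0.0109) and PRM1 (0.0202) lost their calls. Deviations of same-numbered arrays from the group means, control against each time point, correlated with r of -0.027 to 0.515 (median 0.181), and those of other numbers with -0.398 to 0.251 (median -0.114). Of the 13 same-numbered pairs 8 were over 0.1, all 3 at 2 generations among them. Since not every pair was, and the labels do not tie the numbers to a culture, the arrays were not taken as pairs. For 50 called named genes, 542 of 597 values under other settings stayed past the threshold. For the medians of the 38 lists, 444 of 456 moved by less than the spread between arrays. The array design sets no depth, and a late change of 0.5 was mostly below what the test could call.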

Other observations

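Of the 131 genes called in the late mean, 60 higher and 19 lower ones belonged to none of the 38 lists. Those below were picked after their values were seen. DIP5, the permease for glutamate and aspartate, had log2 ratios of -0.21, -0.23 and -0.45 in the controls and between 1.04 and 1.85 on the late arrays, a change of 1.74 ± 0.16 (limma, adjusted p = 7.36e-08). VID24, a subunit of the ubiquitin ligase that marks gluconeogenic enzymes for breakdown, stood at -1.51, -1.43 and -1.50 in the controls, at -0.23, -0.29 and -0.25 at 1 generation and at 0.39, 0.41 and 0.94 at 3 generations. Its late change was 1.65 ± 0.11 (adjusted p = 1.33e-11), and no treated array at these times overlapped the controls. IRC15, a microtubule-associated protein, rose by 1.65, ZTA1, a quinone oxidoreductase, by 1.58, and BDH1, butanediol dehydrogenase, by 1.23.

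CLB1, a B-type cyclin of mitosis, was at -1.33, -1.22 and -1.54 in the controls, overlapped them at 0.38 generations (-1.66, -1.32 and -1.55) and ran from -2.45 to -1.99 on the late arrays. Its late change was -0.91 with antimycin A and 0.60 in N2, a difference of -1.50 ± 0.13 (adjusted p = 3.8e-12). In N2 its controls were -0.502, -0.565 and -0.378. It stood there at 0.627, 0.713 and 0.669 at 1 generation, but at -0.388, -0.321 and -0.279 at 3 generations. RGI2, a gene of energy metabolism under respiratory growth, rose by 1.88 with antimycin A and had a late change of 2.96 in N2, a difference that was not called. The N2 controls of RGI2 were far apart, at -0.53, -2.59 and -3.37. SUE1, needed for the breakdown of unstable cytochrome c, rose by 1.00 and DDR2, a general stress gene, by 1.43, against -2.77 and -1.88 in N2.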
